A study of Mus musculus with 21 samples.

Results

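The genes described here build MHC class I molecules and load them with peptide: the light chain B2m, the classical heavy chains H2-K1 and H2-D1, the non-classical heavy chains H2-Q4, H2-T22 and H2-T23, the peptide transporter subunits Tap1 and Tap2, the loading chaperone Tapbp, and the class I transactivator Nlrc5. They were chosen by name, with earlier results of these data known. All 10 were found among the 24411 genes of each of 2 tables of hippocampal RNA from male wild-type mice. One experiment was a depletion: aged mice, 22 to 24 months old, were injected intraperitoneally every 4 days until sacrifice with an antibody against CD8a (clone 2.43, n = 5) or with its isotype control, rat IgG2b (clone LTF-2, n = 5). The other was a transfer: B6.SJL-Ptprca Pepcb/BoyJ recipients aged 4 months were given CD8+ T cells from C57BL/6J donors aged 22 to 28 months (aged T, n = 5) or 3 to 4 months (young T, n = 6), taken from spleen and blood. Both transfer groups had first received the CD8a antibody on days -11 and -7, so neither is an untreated hippocampus. After perfusion, hippocampal tissue from 1 hemisphere was taken as bulk, in which fewer cells of a type and less RNA per cell cannot be told apart. Each experiment was normalized and analysed by itself.

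MHC class I molecules display peptides from inside the cell to CD8+ T cells and to inhibitory receptors of natural killer cells. Peptides cut by the proteasome enter the endoplasmic reticulum through the Tap1 and Tap2 transporter, tapasin (Tapbp) holds the empty molecule next to it, and the heavy chain reaches the surface stably only when it is paired with B2m and peptide. Interferons raise this whole set of genes, and Nlrc5 drives it by binding factors on a shared promoter module. In the brain, class I is most abundant in endothelial cells and microglia and low in most neurons, where it has been linked to synapse remodelling.

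Library depth was 9957822 to 12136146 reads for CD8a antibody samples, 11103024 to 14375029 for IgG2b samples, 12361933 to 15055422 for aged T samples and 11232442 to 14911138 for young T samples. Markers of hippocampal fields were read in both experiments (12 of 12 above 0). The targets of the treatment were close to absent: Cd8a, the receptor chain the antibody binds, had 14 reads in all 5 CD8a antibody libraries and 10 in all 5 IgG2b libraries, and 0 reads with aged T cells against 1 with young T cells. Cd8b1, its partner chain, had 9 reads after antibody treatment and 8 after IgG2b, and 0 with aged T cells against 1 with young T cells. Cd3e, a chain of the T cell receptor complex, had 0 reads after antibody treatment and 1 after IgG2b, and 0 with aged T cells against 7 with young T cells, all from 1 library. These counts check neither the depletion nor the transfer. Values below are normalized counts, which are reads divided by 1 size factor per library.

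B2m lies on chromosome 2 of the mm10 build (122147687 to 122153082) and Nlrc5 on chromosome 8 (94434335 to 94527272). The other 8 genes lie in the MHC region of chromosome 17, where Tapbp (33919478 to 33929290) and H2-K1 (33996012 to 34000619) sit at one end and H2-T23 (36029977 to 36032701) and H2-T22 (36037128 to 36042742) at the other. Tap1 (start at 34187556) runs away from the immunoproteasome gene Psmb9 (start at 34187330), with 225 bases between the RefSeq starts. RefSeq promoter windows (GRCm38.p6) were matched for 8 of the 10 genes. The 200 bases before the start are shown for the 4 genes with the smallest p in the depletion experiment, for the heavy chain H2-T22 and for Tap1, since the windows differ in the motifs they hold. Capitals mark the kB motif (GGGA, any 4 bases, CC), the interferon response core AANNGAAA, the X2 motif TGACG and the Y motif ATTGG, each searched on both strands, and overlapping matches run together. The windows are B2m at chr2:122147487-122147686 (plus strand), H2-K1 at chr17:34000348-34000547 (minus strand), H2-D1 at chr17:35262894-35263093 (plus strand), H2-Q4 at chr17:35379417-35379616 (plus strand), H2-T22 at chr17:36042743-36042942 (minus strand) and Tap1 at chr17:34187356-34187555 (plus strand).
B2m: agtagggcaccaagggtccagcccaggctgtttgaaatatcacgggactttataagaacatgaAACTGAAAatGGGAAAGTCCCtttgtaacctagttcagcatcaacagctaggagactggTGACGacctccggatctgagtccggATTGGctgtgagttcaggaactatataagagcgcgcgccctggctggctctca
H2-K1: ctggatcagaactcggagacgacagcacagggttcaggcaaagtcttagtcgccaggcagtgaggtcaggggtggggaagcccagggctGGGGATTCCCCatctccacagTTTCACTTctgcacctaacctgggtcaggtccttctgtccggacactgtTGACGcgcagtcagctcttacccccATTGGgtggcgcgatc
H2-D1: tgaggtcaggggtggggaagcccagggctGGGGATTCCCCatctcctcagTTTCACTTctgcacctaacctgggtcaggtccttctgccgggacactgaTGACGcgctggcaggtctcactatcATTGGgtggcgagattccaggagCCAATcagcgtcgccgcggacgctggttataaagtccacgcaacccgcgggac
H2-Q4: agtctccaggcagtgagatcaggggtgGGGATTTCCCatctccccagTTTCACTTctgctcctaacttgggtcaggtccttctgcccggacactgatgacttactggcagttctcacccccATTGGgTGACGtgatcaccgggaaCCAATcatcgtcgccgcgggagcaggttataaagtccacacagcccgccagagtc
H2-T22: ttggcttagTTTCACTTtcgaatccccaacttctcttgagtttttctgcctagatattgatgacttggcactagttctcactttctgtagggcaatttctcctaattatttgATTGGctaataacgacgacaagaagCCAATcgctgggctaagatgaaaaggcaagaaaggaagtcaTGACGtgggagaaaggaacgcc
Tap1: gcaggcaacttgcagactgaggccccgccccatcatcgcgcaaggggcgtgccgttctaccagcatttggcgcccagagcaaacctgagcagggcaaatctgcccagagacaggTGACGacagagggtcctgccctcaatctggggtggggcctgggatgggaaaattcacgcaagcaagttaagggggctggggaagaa

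Over the 250 bases before the start, a kB motif was found in 5 of the 8 genes (B2m, H2-K1, H2-D1, H2-Q4 and H2-T22), against 17.6% of 32851 mouse promoter windows of that length. The interferon response core was found in 6 of 8 (those 5 and H2-T23), against 21.3% of windows. X2 was found in 6 of 8, against 17.8%, and Y in 8 of 8, against 33.9%. An X2 motif followed on the gene's strand by Y after 15 to 25 bases was found in 3 of 8, against 0.207% of windows (68), and in B2m, H2-K1 and H2-D1 the gap was 20 bases in each. H2-Q4 and H2-T22 also held both motifs, with Y ahead of X2 on the gene's strand. Tap1 held X2 on its strand and Y on the other. Tapbp held neither kB, the interferon response core nor X2. The letters were chosen with these sequences in view, and a match is a description of the letters and not of a bound site.

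The depletion experiment asked what removal of circulating CD8+ T cells does to the aged hippocampus. Class I transcripts lay higher with the CD8a antibody. By limma, 9 of 9 tested genes had a log2 difference above 0, against 49.6% of all 13939 genes tested. The median was 0.36 against -0.0020 for all genes. Since the members were chosen with earlier results of these data known, these shares are a description and not a test. The 4 genes whose unadjusted p was under 0.05 were B2m, H2-K1, H2-D1 and H2-Q4, which are the light chain and 3 of the 5 heavy chains (4 of 9, against 4.31% of all genes on the higher side). No member passed limma's adjusted p of 0.05, a threshold that 1 of 13939 genes passed (0.00717%). DESeq2 on the recovered reads called 1 of the 9 with an adjusted p, B2m, where it called 92 of 14024 genes (0.656%), 30 of them higher (0.214%). Without CD8a antibody replicate 5, DESeq2 called 4 members, B2m, H2-K1, H2-D1 and H2-Q4, among 303 of 14659 genes (2.07%). edgeR's quasi-likelihood test and limma-voom each called 0 members and 1 gene of 13906 (0.00719%). At an unadjusted p under 0.05 they had 4 and 5 members, all higher, where 722 and 634 of 13906 genes were on the higher side. Nlrc5 lay below the mean normalized count of 10 needed for testing, and without that filter it was higher as well, so that 10 of 10 were above 0 against 50.9% of 18180 genes.

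B2m, which every class I heavy chain needs for a stable surface molecule, was at 1381, 1436, 1361, 1369 and 1366 normalized counts in CD8a antibody replicates 1 to 5, against 915, 1157, 937, 981 and 889 in IgG2b replicates 1 to 5. The groups did not overlap, and the CD8a antibody libraries lay within a narrow band while IgG2b replicate 2 stood above its group. The log2 difference was 0.51 (SE 0.09, 95% interval 0.31 to 0.71), with an adjusted p of 0.148 by limma and 0.000354 by DESeq2. DESeq2 called B2m in each of 10 fits that left out 1 library, with adjusted p of 1.15e-07 to 0.00972. Those fits called from 25 of 14316 to 303 of 14659 genes in all. They share most of their libraries, so they do not replicate one another. Of the 10 limma fits that left out 1 library, the fit without CD8a antibody replicate 5 called it (adjusted p 0.0464), with 25 of 13939 genes passing (0.179%). In the 9 others it did not pass, and the highest adjusted p was 0.467. limma with array weights also called B2m (adjusted p 0.00709), where 0.947% of genes were called on the higher side.

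H2-D1, a classical heavy chain that presents peptide to CD8+ T cells, was at 1037, 847, 875, 884 and 748 normalized counts in CD8a antibody replicates 1 to 5, against 602, 718, 613, 439 and 725 in IgG2b replicates 1 to 5. Its groups did not overlap either, with CD8a antibody replicate 5 just above IgG2b replicates 5 and 2. The log2 difference was 0.52 (SE 0.14, 95% interval 0.22 to 0.82; adjusted p 0.311 by limma and 0.0806 by DESeq2). B2m and H2-D1 were the 2 of 9 tested members whose CD8a antibody libraries all lay above all IgG2b libraries, against 0.782% of all genes.

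H2-K1, the other classical chain, was at 590, 644, 670, 459 and 476 normalized counts with the CD8a antibody, against 329, 400, 387, 314 and 536 with IgG2b. CD8a antibody replicates 4 and 5 lay below IgG2b replicate 5, and the other 3 lay above every IgG2b library. The log2 difference was 0.54 (SE 0.16, 95% interval 0.20 to 0.88; adjusted p 0.324 by limma and 0.116 by DESeq2).

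H2-Q4, a Qa-region heavy chain, had the largest difference of the 9 tested members. It was at 108, 155, 106, 54.7 and 74.5 normalized counts with the CD8a antibody, against 54.4, 60.4, 54.7, 31.0 and 61.2 with IgG2b. CD8a antibody replicate 4 sat among the IgG2b libraries, and the other 4 lay above all of them. The log2 difference was 0.87 (SE 0.27, 95% interval 0.29 to 1.45; adjusted p 0.362 by limma and 0.0918 by DESeq2). H2-T23, which encodes Qa-1, a chain recognised by inhibitory receptors of natural killer cells, was at 128, 165, 177, 117 and 180 with the CD8a antibody, against 123, 130, 86.8, 105 and 151 with IgG2b. These groups overlapped (log2 difference 0.36, SE 0.18; limma adjusted p 0.609).

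H2-T22, a chain that some gamma delta T cells recognise, was the most uneven of the 9 tested members by its standard error. It was at 59.9, 96.9, 62.7, 27.9 and 128 normalized counts with the CD8a antibody, against 69.1, 72.5, 55.6, 57.8 and 53.7 with IgG2b. Both the lowest and the highest library of the table were CD8a antibody libraries, replicates 4 and 5, and the log2 difference was 0.12 (SE 0.32, 95% interval -0.56 to 0.80; limma adjusted p 0.942). Its sign turned with array weights (-0.12), with an endothelial covariate (-0.20), and without CD8a antibody replicate 2 (-0.01) or 5 (-0.11). It was larger on the higher side with edgeR (0.30), DESeq2 (0.29), a microglia covariate (0.33) and a ventral minus dorsal covariate (0.58). Of the 75-base windows in its annotated transcripts, 24.6% were also found in other genes, H2-T10 first among them, so its counts may be split with near copies. The share was 13.1% for H2-T23, 7.91% for H2-Q4, 6.15% for H2-D1, 1.36% for Tapbp and 1.12% for H2-K1, and 0% for B2m, Tap1, Tap2 and Nlrc5.

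The loading genes were also higher on average, within overlapping groups. Tapbp, which bridges the heavy chain to the transporter, was at 353, 305, 424, 259 and 325 normalized counts with the CD8a antibody, against 285, 312, 289, 240 and 325 with IgG2b. Tap2 was at 178, 198, 192, 173 and 148 with the CD8a antibody, against 173, 142, 141, 134 and 178 with IgG2b. Tap1 was at 80.3, 55.7, 80.2, 55.9 and 53.9 with the CD8a antibody, against 69.9, 61.3, 53.0, 40.2 and 37.6 with IgG2b. All 3 genes overlapped between groups, with log2 differences of 0.19 for Tapbp (SE 0.14), 0.21 for Tap2 (SE 0.14) and 0.32 for Tap1 (SE 0.22), and limma adjusted p of 0.742, 0.698 and 0.717 in that order. Their 95% intervals reached down to -0.11, -0.08 and -0.15, and up to 0.49, 0.51 and 0.79. With a microglia covariate, Tap1 was at -0.02.

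Nlrc5, the transactivator of the class I genes, was read only 86 times over the 10 libraries. It was at 15.6, 22.3, 10.3, 4.47 and 8.82 normalized counts in CD8a antibody replicates 1 to 5, against 6.91, 6.51, 4.34, 5.03 and 4.29 in IgG2b replicates 1 to 5. All CD8a antibody libraries but replicate 4 lay above every IgG2b library. Without the filter the log2 difference was 0.91 (SE 0.39, limma adjusted p 0.592), and DESeq2 gave 1.17 (SE 0.53, unadjusted p 0.0272) with no adjusted p.

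**Figure D1:**
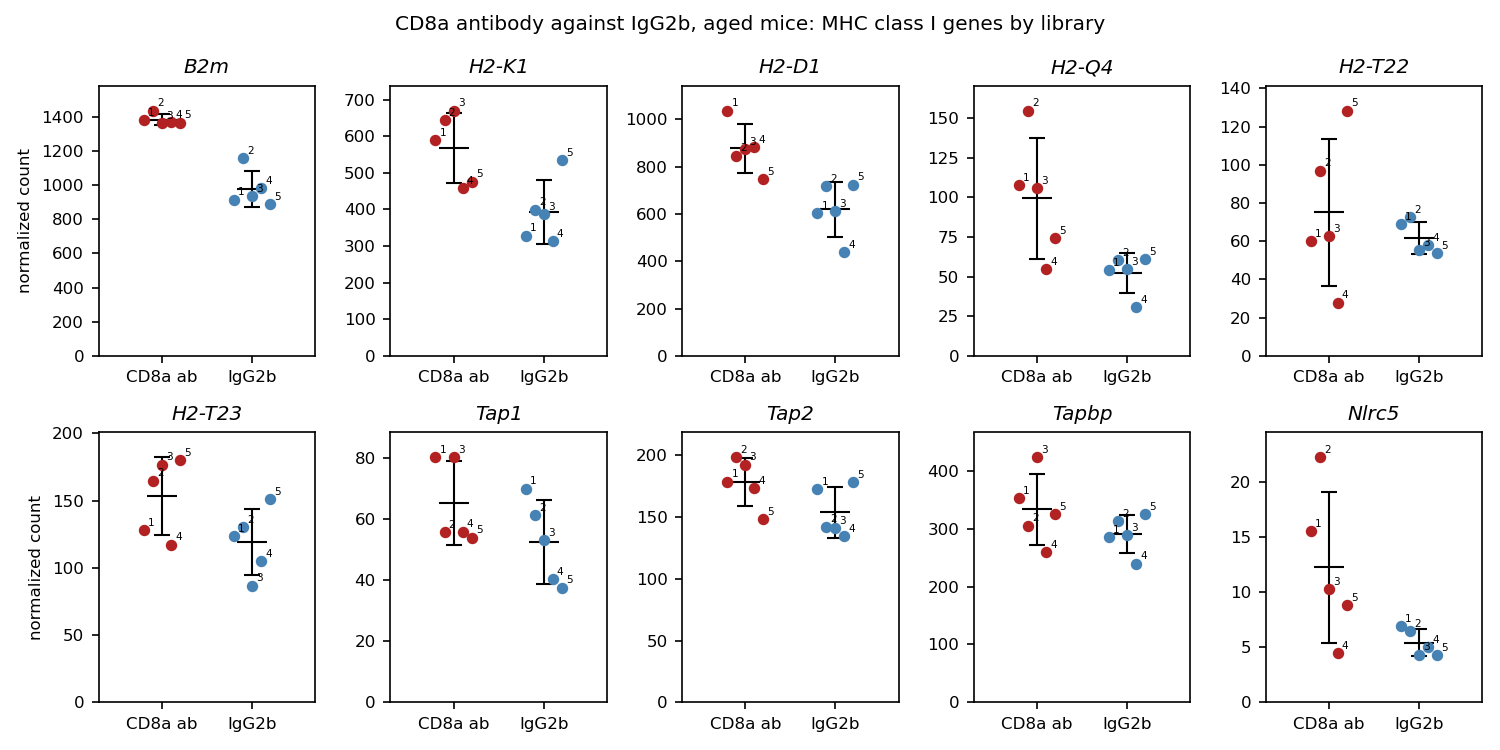
Normalized counts (y axis, from 0, a separate scale per panel) of the 10 genes in the 5 CD8a antibody libraries (left, red) and the 5 IgG2b libraries (right, blue) of the depletion experiment; points are libraries with their replicate numbers, and bars are the mean ± SD. B2m is at 1361 to 1436 with the CD8a antibody and at 889 to 1157 with IgG2b, with no overlap. Among the CD8a antibody libraries, replicate 4 is the lowest for H2-K1, H2-Q4, H2-T22, H2-T23, Tapbp and Nlrc5.

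The difference was uneven across the libraries. CD8a antibody replicates 1, 2, 3 and 5 had all 10 genes above the IgG2b median, and replicate 4 had 6. The median log2 ratio to the IgG2b median over the 10 genes was 0.57, 0.55, 0.54, 0.04 and 0.37 in CD8a antibody replicates 1 to 5, and ranged from -0.25 in IgG2b replicate 4 to 0.17 in IgG2b replicate 2. Without CD8a antibody replicate 4 the limma log2 difference was 1.06 for H2-Q4 and 0.43 for H2-T22, and without IgG2b replicate 4 that of H2-D1 was 0.40.

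Although the heavy chains lay higher, their proportions did not differ detectably. On the scale of normalized counts per kb of annotated transcript, H2-D1 made up 42.7 ± 5.44% of the summed heavy chains with the CD8a antibody and 42.5 ± 2.52% with IgG2b (SD, n = 5 each). H2-K1 made up 36.6 ± 2.69% with the CD8a antibody and 36.1 ± 3.20% with IgG2b, and the 3 non-classical chains made up 20.7 ± 4.71% and 21.4 ± 2.22%. B2m stood at 1.65 ± 0.17 times the summed heavy chains with the CD8a antibody and 1.68 ± 0.34 times with IgG2b. None of these ratios passed an exact two-sided permutation test (unadjusted p 0.794 to 0.937; adjusted p 0.976 over 10 such ratios in the 2 experiments).

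The order of levels per kb with the CD8a antibody was B2m (1608 ± 35.9), H2-D1 (418 ± 49.5), H2-K1 (362 ± 61.3), Tapbp (122 ± 22.2), H2-T23 (104 ± 19.6), H2-Q4 (55.5 ± 21.2), Tap2 (51.7 ± 5.70), H2-T22 (44.4 ± 22.7), Tap1 (23.4 ± 4.94) and Nlrc5 (2.14 ± 1.19; SD, n = 5). With IgG2b it was B2m (1135 ± 124), H2-D1 (295 ± 55.1), H2-K1 (251 ± 56.0), Tapbp (106 ± 11.9), H2-T23 (81.0 ± 16.7), Tap2 (44.6 ± 5.89), H2-T22 (36.4 ± 5.0), H2-Q4 (29.2 ± 6.88), Tap1 (18.8 ± 4.94) and Nlrc5 (0.942 ± 0.212). H2-D1 and H2-K1 lay within about 1 SD of each other in both groups, as did Tapbp and H2-T23 with the CD8a antibody. H2-Q4, Tap2 and H2-T22 had a different order in each group and were not separated by their spread with the CD8a antibody.

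Mean levels of several cell type markers also differed between these groups, but the ranges overlapped for every list given here except the ventral one. The summed normalized count of 13 microglial identity markers, all above 0, was 6020 to 7963 with the CD8a antibody against 5252 to 6317 with IgG2b (log2 difference 0.28, exact permutation p 0.0159, adjusted p 0.119 over 15 marker lists). Pericyte and smooth muscle markers summed to 1491 to 2481 against 1302 to 1630 (9 of 9 above 0; log2 difference 0.34, exact permutation p 0.0317, adjusted p 0.159). Oligodendrocyte markers summed to 52369 to 100806 with the CD8a antibody against 50324 to 64580 with IgG2b (10 of 10 above 0; 0.46, exact permutation p 0.0476, adjusted p 0.179). Endothelial markers summed to 4302 to 6042 with the CD8a antibody against 3929 to 4551 with IgG2b (15 of 15 above 0; 0.17, exact permutation p 0.0952, adjusted p 0.286). Markers of the ventral hippocampus summed to 913 to 1752 with the CD8a antibody against 1774 to 2252 with IgG2b (6 of 6 above 0; -0.75, exact permutation p 0.00794, adjusted p 0.119). Choroid plexus markers summed to 28029, 37203, 45667, 5757 and 2464 in CD8a antibody replicates 1 to 5. With IgG2b they ran from 4224 to 38504, highest in replicate 1 (12 of 12 above 0; 0.78, exact permutation p 0.468, adjusted p 0.75). No list passed the adjusted threshold. The ventral list was at the smallest p that 252 permutations can give, so over 15 lists it could not pass by itself. Without CD8a antibody replicate 5, 3 lists passed, the microglial, oligodendrocyte and ventral ones (adjusted p 0.0397 each). Each of the 3 was at the smallest p of that test (exact permutation p 0.00794, 126 permutations).

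As a covariate, the level of a marker list was the mean of log2(normalized count + 1) over its genes, not the summed count above. With the microglial level as a covariate, the limma log2 difference was 0.39 for B2m (SE 0.15), 0.65 for H2-K1 (SE 0.25), 0.40 for H2-D1 (SE 0.22) and 0.79 for H2-Q4 (SE 0.44), and 0 of 13939 genes passed. With the endothelial level as a covariate it was 0.49 for B2m and 0.51 for H2-D1, and 0.36 for H2-K1 and 0.33 for H2-Q4. With the ventral minus dorsal level as a covariate H2-Q4 was at 1.5 and H2-K1 at 0.83. With the choroid plexus level as a covariate B2m was at 0.51, H2-D1 at 0.50, H2-K1 at 0.51 and H2-Q4 at 0.77. The part of tissue makeup in the class I values was not tested beyond these fits. The CD8 T cell markers (11 of 14 in the table, Gzmk at 0 throughout) were near 0 in all libraries, with sums of 8.22 to 20.1 with the CD8a antibody against 4.34 to 12.1 with IgG2b.

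**Figure D2:**
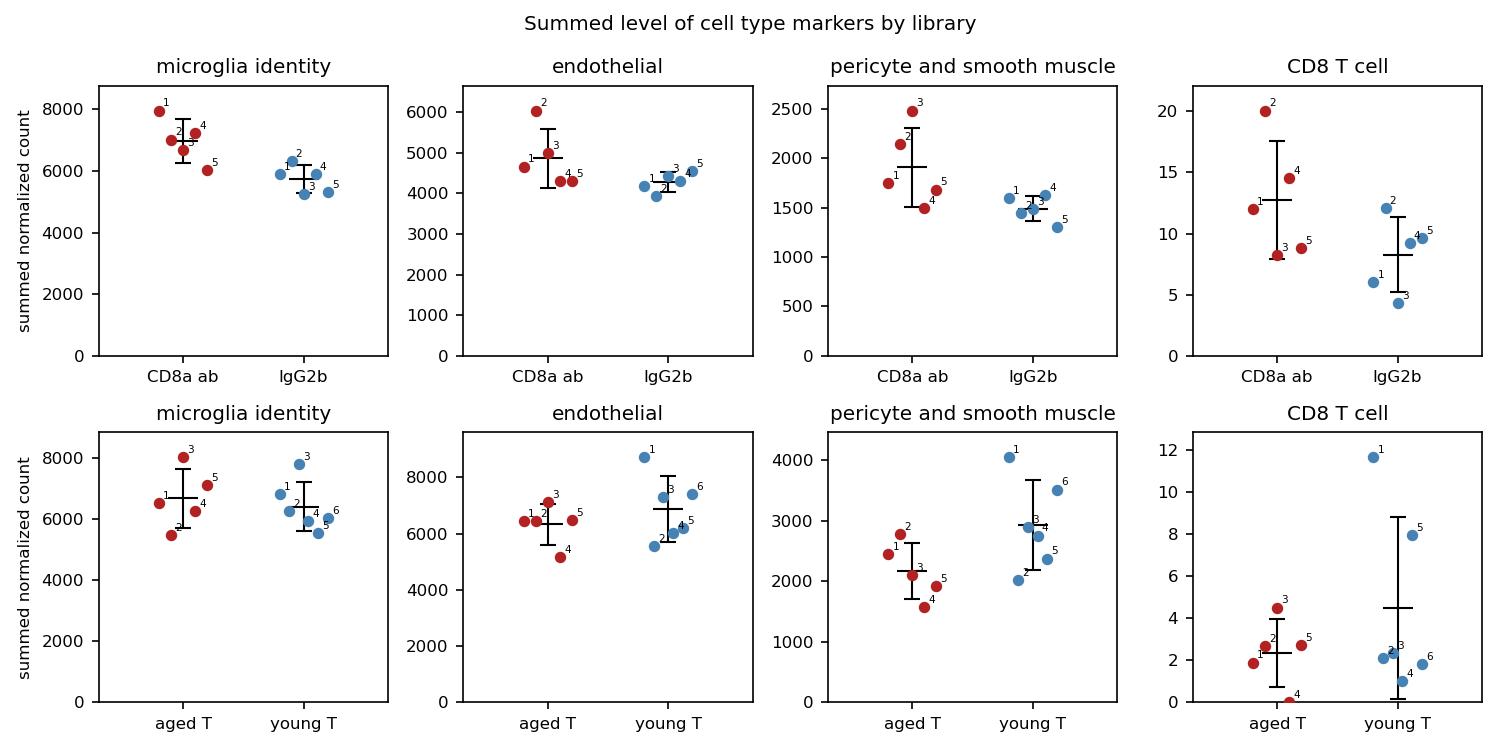
Summed normalized counts (y axis, from 0, a separate scale per panel) of 4 marker lists, in the depletion experiment (top row, CD8a antibody left, IgG2b right) and the transfer experiment (bottom row, aged T left, young T right); points are libraries with replicate numbers, and bars are the mean ± SD. Microglial markers are at 6020 to 7963 with the CD8a antibody and at 5252 to 6317 with IgG2b, and young T replicate 1 is the highest library for endothelial (8723) and pericyte and smooth muscle markers (4049).

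The other genes of the pathway were read as lists, of which limma called 0 genes in either experiment. Of 6 immunoproteasome and PA28 genes, 6 were higher with the CD8a antibody (median 0.26), against 49.6% of all genes. Psmb8, an interferon-inducible catalytic subunit, was at 97.1 ± 11 normalized counts with the CD8a antibody and 50.7 ± 8.20 with IgG2b (SD, n = 5 each), with no overlap (log2 difference 0.93, SE 0.17; adjusted p 0.148 by limma and 0.00149 by DESeq2). DESeq2 called no other gene of this list. Psmb9, the neighbour of Tap1, was at 20.6 ± 7.04 and 14.5 ± 6.33 (log2 difference 0.53, SE 0.37), and Psme2 at 382 ± 87.9 and 314 ± 23.7 (0.25, SE 0.14). Psme1 (0.04) and Psmb10 (0.02) had the smallest differences of the list's named genes.

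Of 12 tested genes of interferon receptors and signalling, 11 were higher with the CD8a antibody (median 0.14), against 49.6% of all genes. On the higher side 2 had an unadjusted p under 0.05 by limma, against 4.31% of all genes. These were Il10rb, a receptor chain shared with type III interferons (128 ± 21.0 with the CD8a antibody and 87.4 ± 15.1 with IgG2b; log2 difference 0.55, SE 0.17), and Ifnar2, a type I interferon receptor chain (271 ± 17.7 and 210 ± 31.3; 0.38, SE 0.12). Stat3 (0.24), Tyk2 (0.27) and Stat2 (0.10) had smaller differences. The cytokine Ifng had 1 read after antibody treatment and 6 after IgG2b. Among 16 tested class I promoter factors and regulators, 8 were higher and 8 lower (median 0.0017). Irf9, the DNA-binding part of the type I interferon complex, was at 119 ± 23.1 with the CD8a antibody and 75.0 ± 7.84 with IgG2b, with no overlap (0.65, SE 0.17; adjusted p 0.282 by limma and 0.0405 by DESeq2). Rela, a kB-binding subunit, was at 0.31 (SE 0.13) and the interferon regulatory factor Irf7 at 1.0 (SE 0.45), with unadjusted p of 0.0249 and 0.0448 by limma. Irf1 (-0.12, SE 0.25), Nfyc (-0.05, SE 0.14) and Rfx5 (0.04, SE 0.13), of which Nfyc and Rfx5 encode parts of the complex that binds Y and X boxes, lay near 0, and the class II transactivator Ciita had 2 reads after antibody treatment and 3 after IgG2b.

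The general endoplasmic reticulum machinery did not lean the same way. Of 13 other genes of peptide loading and trimming, 5 were higher and 8 lower with the CD8a antibody (median -0.05), and none had an unadjusted p under 0.05. Calreticulin (Calr) was at 4964 ± 748 with the CD8a antibody and 5183 ± 527 with IgG2b, and the disulphide isomerase Pdia3, tapasin's partner, at 3117 ± 310 and 3184 ± 187. Their log2 differences were -0.07 (SE 0.12) and -0.03 (SE 0.10). The smallest p of the list belonged to Lnpep (-0.50, SE 0.30), Hspa5 (-0.19, SE 0.12) and Sec61a1 (0.11, SE 0.12), and the trimming peptidase Erap1 was at 0.21 (SE 0.25). Of 8 tested class I-like chains, 4 were higher. Hfe, the iron regulator that also pairs with B2m, was at 69.6 ± 4.03 with the CD8a antibody and 47.9 ± 10.7 with IgG2b (log2 difference 0.56, SE 0.19), and Fcgrt, the neonatal Fc receptor and another B2m partner, at 214 ± 27.5 and 168 ± 14.7 (0.34, SE 0.13). Neither overlapped between groups, and limma's adjusted p was 0.409 and 0.457. H2-Q7 (-1.21, SE 0.64), H2-K2 (-0.14) and H2-M3 (-0.10) were on the other side of 0.

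The transfer experiment asked what aged CD8+ T cells change in a young hippocampus. Class I transcripts showed no common shift: 3 of 9 tested members were higher with aged T cells and 6 lower, where 49% of 14162 genes were higher, and the median log2 difference was -0.08 against -0.0045 for all genes. None of the 9 had an unadjusted p under 0.05 by limma, which 8.25% of all genes had, and limma, edgeR's quasi-likelihood test, DESeq2 and limma-voom each called 0 members and 0 genes (0%). At an unadjusted p under 0.05 these tests had 1169, 1263, 1478 and 1165 genes in that order. No member's groups were apart, against 0.459% of genes on the higher and 0.24% on the lower side.

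B2m was at 944, 867, 1101, 757 and 1183 normalized counts in aged T replicates 1 to 5, against a lowest of 867, a median of 982 and a highest of 1369 in the 6 young T libraries. The groups overlapped, and no aged T library lay above the highest young T one. Aged T replicate 4 lay below every young T library, and so, narrowly, did replicate 2 (866.8 against 867.5 in young T replicate 4). The log2 difference was -0.08 (SE 0.13, 95% interval -0.36 to 0.19; limma adjusted p 0.870). The upper end of this interval lies below the lower end of the interval in the depletion experiment (0.31). The difference between the experiments was not tested, since each experiment was normalized by itself and the mice differ in age.

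H2-K1 was at 444, 461, 512, 254 and 529 normalized counts in aged T replicates 1 to 5, against 331, 411 and 833 (lowest, median and highest) with young T cells. H2-D1 was at 653, 639, 606, 437 and 629 with aged T cells, against 505, 585 and 1001 with young T cells. For both chains aged T replicate 4 was the lowest library of the table and a young T library the highest, while 4 of 5 aged T libraries lay above the young T median. Their log2 differences were -0.05 (SE 0.23, 95% interval -0.54 to 0.44) and -0.10 (SE 0.16, 95% interval -0.44 to 0.23), with limma adjusted p of 0.961 and 0.860.

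H2-Q4 was at 69.0, 53.5, 86.7, 37.5 and 77.0 with aged T cells, against 46.3, 58.3 and 125 (lowest, median and highest) with young T cells (log2 difference -0.11, SE 0.28). H2-T23 was at 121, 119, 104, 103 and 138 with aged T cells, against 90.5, 118 and 198 with young T cells (-0.11, SE 0.18). H2-T22 was at 39.7, 60.6, 52.9, 61.9 and 51.6 with aged T cells, against 31.6, 46.4 and 79.6 with young T cells (0.16, SE 0.24). The ranges overlapped for all 3 non-classical chains, with limma adjusted p of 0.931, 0.873 and 0.856.

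Tapbp was at 342, 396, 355, 265 and 368 normalized counts with aged T cells, against 343, 376 and 515 with young T cells. Its log2 difference, -0.18 (SE 0.12, 95% interval -0.44 to 0.09; limma adjusted p 0.685), was the farthest from 0 on the lower side, and 1 of 5 aged T libraries lay above the young T median. Tap1 was at 41.6, 54.3, 79.9, 38.5 and 62.5 with aged T cells, against 44.2, 52.5 and 72.8 with young T cells, and Tap2 at 154, 168, 165, 122 and 173 against 116, 163 and 196. The log2 differences of the transporter subunits were 0.01 (SE 0.22) and 0.02 (SE 0.16). Nlrc5, with 103 reads in 11 libraries, was at 13.2, 16.9, 6.75, 2.03 and 5.44 with aged T cells, against 3.09, 8.83 and 21.4 with young T cells (-0.11, SE 0.51 without the filter).

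**Figure D3:**
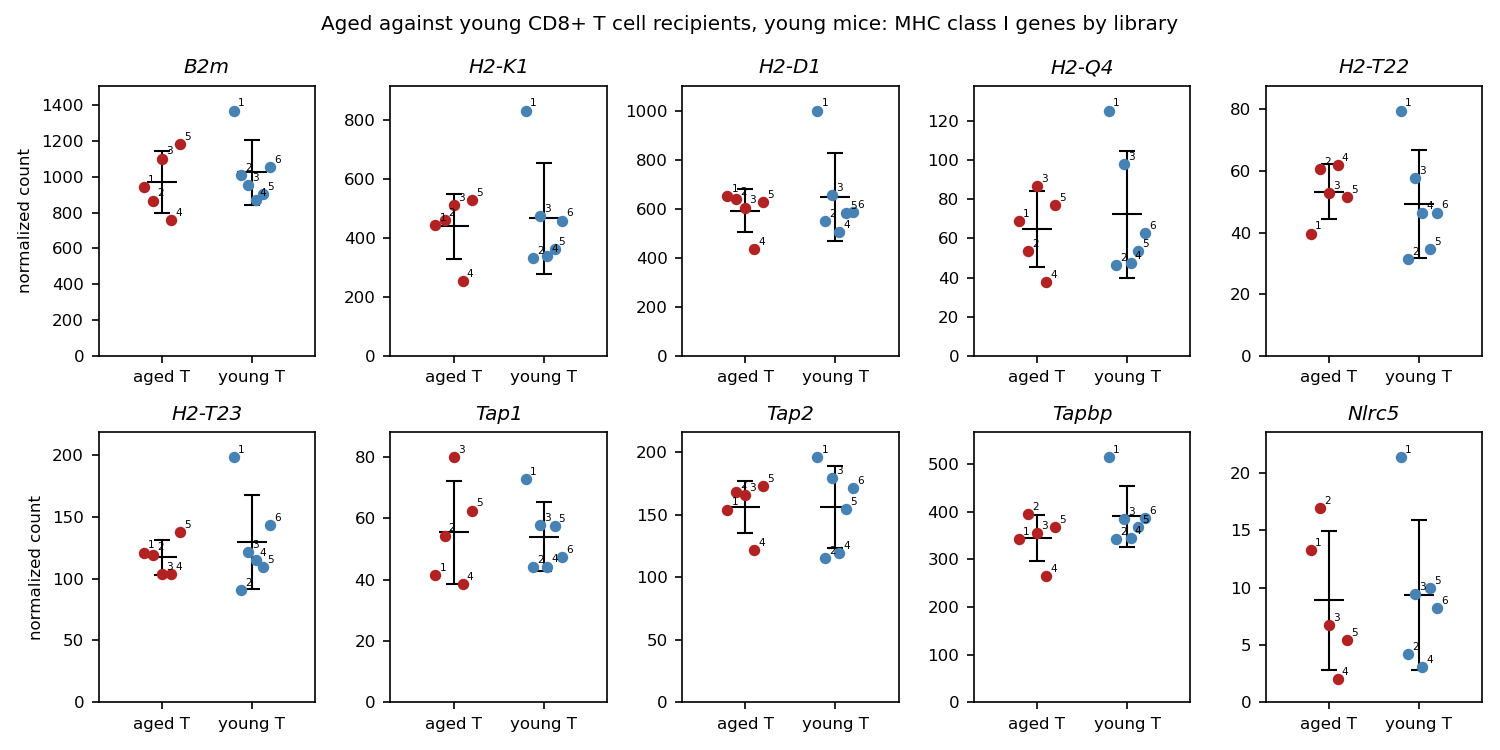
Normalized counts (y axis, from 0, a separate scale per panel) of the 10 genes in the 5 aged T libraries (left, red) and the 6 young T libraries (right, blue) of the transfer experiment; points are libraries with replicate numbers, and bars are the mean ± SD. Young T replicate 1 is the highest library for all genes but Tap1, for example at 833 for H2-K1, and aged T replicate 4 is the lowest for 7 of the 10.

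These values turn on 2 libraries. Young T replicate 1 was the highest of the 11 libraries for 9 of the 10 genes, at a median log2 ratio of 0.75 to the young T median, and aged T replicate 4 was the lowest for 7 of 10, at -0.43. Without young T replicate 1, 8 of 9 tested genes were higher with aged T cells, and without aged T replicate 4, 7 of 9 were. By limma no gene passed in either fit. Young T replicate 1 also held the highest marker sums for endothelial cells (8723, against 5551 to 7393 in the other 5 young T libraries), for pericytes and smooth muscle (4049, against 2022 to 3512) and for meningeal fibroblasts (7578, against 2262 to 3744). It was likewise the highest of the 11 for border macrophages (269, against 48.4 to 247 in the other young T libraries), for CD8 T cells (11.7, against 1.03 to 7.94) and for B and NK cells (16.5, against 1.98 to 4.72). Its microglial sum of 6820 lay inside the young T range of 5532 to 7781. Aged T replicate 4 had the lowest endothelial sum, 5153, the lowest pericyte and smooth muscle sum, 1579, and sums of 0 for the CD8 T cell and the B and NK cell lists. With the endothelial level as a covariate, 8 of 9 members were higher with aged T cells, and with the microglial level 1 of 9. The part of tissue makeup in the values of these 2 libraries was not tested beyond these fits. No marker list passed the adjusted threshold between the transfer groups (smallest adjusted p 0.584, exact permutation tests). The smallest unadjusted p belonged to ependymal markers (log2 difference 0.63, exact permutation p 0.0584) and to pericyte and smooth muscle markers (-0.43, exact permutation p 0.0779). The ranges overlapped for both, and equal tissue makeup is not shown.

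**Figure D4:**
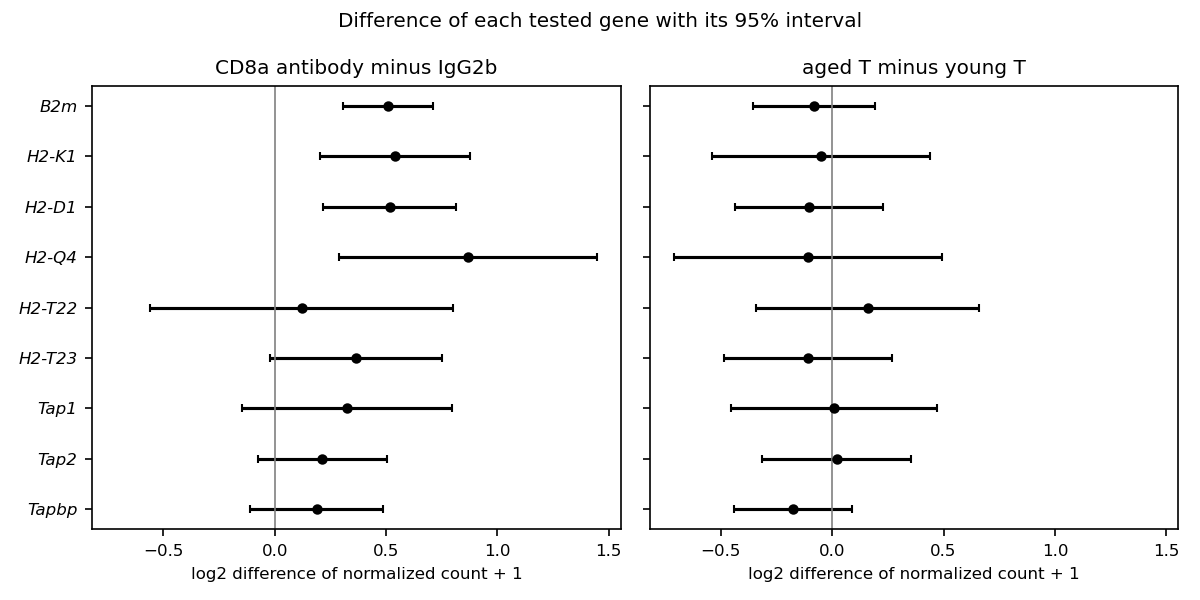
Log2 difference of normalized count + 1 (x axis) with its 95% interval from limma for the 9 tested genes, CD8a antibody minus IgG2b (left) and aged T minus young T (right). With the CD8a antibody the intervals of B2m, H2-K1, H2-D1 and H2-Q4 lie above 0, from a lower end of 0.20 for H2-K1 to an upper end of 1.45 for H2-Q4, and with aged T cells all 9 intervals span 0.

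Proportions within the class I genes did not differ detectably in the transfer either. H2-D1 made up 39.9 ± 2.31% of the heavy chains per kb with aged T cells and 40.9 ± 3.04% with young T cells, and H2-K1 made up 39.0 ± 4.05% and 38.4 ± 2.33% (SD, n = 5 and 6). B2m stood at 1.60 ± 0.17 times the heavy chains with aged T cells and 1.62 ± 0.26 times with young T cells (unadjusted exact permutation p 0.563 to 0.976 over the 5 ratios). The order of the group means per kb with aged T cells was B2m (1128 ± 201), H2-D1 (282 ± 42.2), H2-K1 (281 ± 70.1), Tapbp (126 ± 17.9), H2-T23 (79.5 ± 9.70), Tap2 (45.5 ± 6.01), H2-Q4 (36.1 ± 10.9), H2-T22 (31.5 ± 5.23), Tap1 (19.9 ± 6.03) and Nlrc5 (1.54 ± 1.05). The order was the same with young T cells, at 1193 ± 211, 308 ± 85.8, 298 ± 121, 142 ± 23.2, 88.1 ± 25.6, 45.4 ± 9.52, 40.3 ± 18, 29.2 ± 10.4, 19.4 ± 3.99 and 1.63 ± 1.13. H2-D1 and H2-K1 did not differ beyond their spread, nor did neighbours from Tap2 to H2-T22.

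After removal of group means, the members varied together across the transfer libraries. All 45 pairs had a positive Pearson r (median 0.76, range 0.30 to 0.95, n = 11 libraries), and 31 passed after adjustment over the 45 pairs by exact permutation within groups, or 23 by Spearman's rho. The closest pair was H2-K1 and Tapbp (r 0.95, exact permutation p 0.00141, adjusted 0.00885; rho 0.95, p 0.00104, adjusted 0.0154), and H2-K1 with H2-D1 had r 0.95 (p 0.00315, adjusted 0.0109; rho 0.85, exact permutation p 0.00772, adjusted 0.0257). For each pair, r was also taken without the 2 libraries farthest from the median of its first-listed gene. These libraries could differ from pair to pair, and the second gene played no part in the choice. Then r was 0.84 for both pairs and the median over 45 pairs was 0.58. B2m with H2-T22 (0.32) and H2-T22 with Nlrc5 (0.30) were the weakest. Much of this rested on the 2 libraries above: the median was 0.60 with 5 pairs passing without young T replicate 1, 0.73 with 18 passing without aged T replicate 4, and 0.49 with 0 passing without both (4 at an unadjusted exact permutation p under 0.05; 9 libraries). Pairs of other genes were not counted, and libraries share depth and normalization across all genes. A common r therefore describes these libraries and is not shown to be particular to class I genes.

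In the depletion experiment 38 of 45 pairs were positive, with a median r of 0.33 (range -0.36 to 0.77, n = 10 libraries), again without a count for other genes. None passed adjustment, and 3 had an unadjusted exact permutation p under 0.05. H2-Q4 with Nlrc5 (r 0.77, exact permutation p 0.0285, adjusted 0.411; rho 0.54) and H2-K1 with H2-Q4 (r 0.76, exact permutation p 0.0194, adjusted 0.411; rho 0.88) were the closest. Without the 2 libraries farthest for the first gene of each pair, r was 0.74 and 0.79 for these pairs, and the median was 0.20. B2m, which differed most clearly between the groups, showed little relation to the classical chains inside them (r -0.08 with H2-K1 and 0.11 with H2-D1, exact permutation p 0.857 and 0.823).

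**Figure D5:**
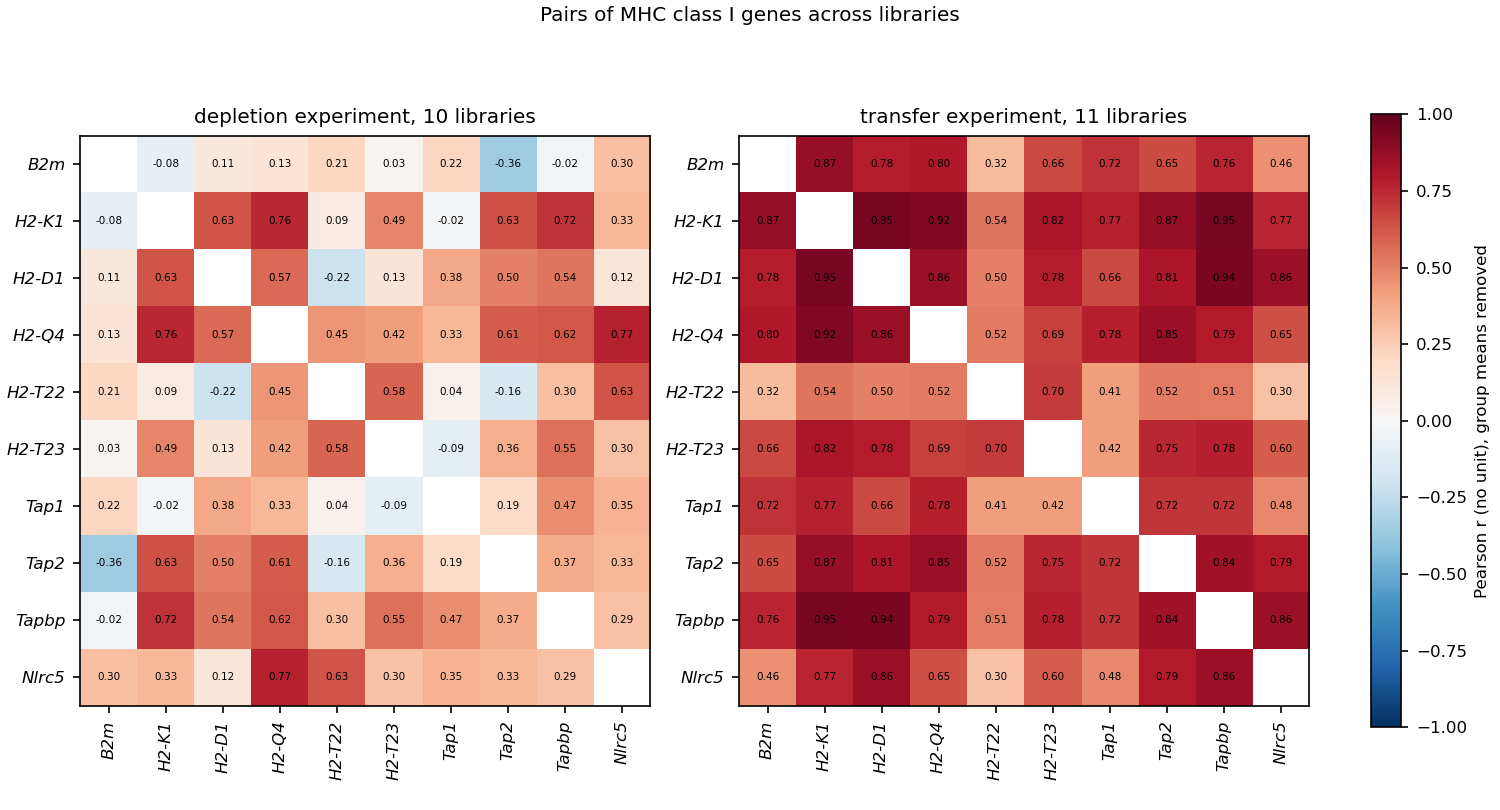
Pearson r between pairs of the 10 genes across libraries, after each group's mean was removed, in the depletion experiment (left, 10 libraries) and the transfer experiment (right, 11 libraries); colour runs from -1 (blue) to 1 (red). All 45 pairs are positive in the transfer, up to 0.95 for H2-K1 and Tapbp, and 38 of 45 in the depletion.

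The other lists of the pathway gave no call in the transfer. Of 6 immunoproteasome and PA28 genes, 6 were higher with aged T cells (median 0.17), where 49% of all genes were higher. The smallest p of the list belonged to Psme2 (352 ± 34.3 with aged T cells and 304 ± 59.7 with young T cells; log2 difference 0.22, SE 0.13) and Psmb10 (334 ± 48.2 and 294 ± 28.5; 0.18, SE 0.11). Psmb8 was at 0.16, Psmb9 at 0.11 and Psme1 at 0.10. Of 12 interferon signalling genes 3 were higher (median -0.12), with Tyk2 at -0.29 (SE 0.15), Stat2 at -0.24 (SE 0.14), Stat3 at -0.12, Ifnar2 at 0.14 and Il10rb at 0.11. Of 16 regulators 5 were higher (median -0.05), with Irf1 at -0.32 (SE 0.16), Nfyc at 0.16 (SE 0.11), Rela at -0.12, Irf9 at -0.09, Rfx5 at -0.07 and Irf7 at 0.21. Ifng had 0 reads in both groups, and Ciita 12 with aged T cells against 14 with young T cells.

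Of 13 other loading and trimming genes, 2 had an unadjusted p under 0.05 by limma, which 8.25% of all 14162 genes had. Both were lower with aged T cells, and the count was not tested against that share. The glucosyltransferase Uggt1, which checks the folding of glycoproteins, was at 654 ± 95.7 with aged T cells and 797 ± 91.4 with young T cells (log2 difference -0.29, SE 0.11), and Tapbpl, the tapasin-related peptide editor, at 75.7 ± 11.3 and 96.4 ± 12.1 (-0.35, SE 0.15). limma's adjusted p was 0.600 for both. In the depletion experiment Uggt1 was at -0.11 and Tapbpl at 0.01. Calr (-0.05), Pdia3 (0.04), Hspa5 (-0.01), Lnpep (-0.10), Sec61a1 (-0.12) and Erap1 (0.15) lay closer to 0. Among 7 tested class I-like chains 5 were higher, with H2-K2 at -0.76 (SE 0.43), H2-M3 at 0.40 (SE 0.28), Hfe at 0.28 (SE 0.24) and Fcgrt at 0.03 (SE 0.20), while H2-Q7 was too low to test.

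The genes whose pattern was most like the mean of the 9 tested members, with group means removed, were Lrrc48 (r 0.98), Edn1 (0.92), Birc3 (0.91), Sod3 (0.90) and Pigv (0.89) over the 10 depletion libraries. Over the 11 transfer libraries they were Tmem51, Isg15, Adam17 and Serpinh1 (0.94 each) and Msn (0.93). These are the highest of all genes compared, so they are a description only. Of the 10, Edn1 had the largest difference with the CD8a antibody among the first 5 (0.61, SE 0.25, limma adjusted p 0.530), and none passed in its experiment.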

How the data were processed

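Hippocampal RNA of 21 libraries was analysed, 10 in the depletion and 11 in the transfer experiment. PolyA-enriched RNA was made into stranded paired-end libraries, per the labels' protocols. STAR, RSEM, DESeq2 and mm10 are named in the submitters' processing notes, which state no version; the sources used here name neither annotation nor counting settings. Per the file headers, the deposited tables give 1 normalized signal per gene and library, the read count divided by a size factor. They also hold the authors' DESeq2 comparison, a log2 fold change (control over treated), its error, a Wald score and p-values, none of which is used here. Every value was a whole multiple of 1 step per library (100% of values, relative tolerance 1e-06), so reads could be recovered. Each library has its own label, and nothing else says that each is 1 animal, so p-values measure the spread between these samples.

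Groups follow the treatment labels. Values were tested as log2(normalized count + 1) with limma-trend (version 3.58.1, in R 4.3.3), for genes with a mean of at least 10, each experiment alone, with Benjamini-Hochberg adjustment over all genes tested and a call at 0.05. Such log2 differences understate changes of low genes. Nlrc5 missed the filter in both experiments. edgeR 4.0.16, DESeq2 1.42.0, limma-voom, TMM, other filters and pseudocounts, array weights, marker covariates and leaving out each library were alternatives. The script was tested on simulated data. Exact permutation tests are two-sided. Levels per kb use median GENCODE vM21 transcript lengths, and shared sequence was counted in 75-base windows of those transcripts, a length chosen here. Promoters are from RefSeq (GRCm38.p6).

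The members and lists were chosen with earlier results of these data known. Beside the members, the text names the 3 genes with the smallest p in the depletion and the 2 in the transfer from each pathway list, a fixed set of genes (1 of which is not reported here), and the 5 genes per experiment most like the members' mean. Replicates were numbered in the order of the sample records.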

Additional observations from a re-analysis of the deposited data

Results flagged for a closer look

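Of 40 groups of libraries, 1 per gene and group, 8 held a library far from the rest of its group by Dixon's criterion, which chance gives in about 1 of 20 groups. Of the 8, 5 were young T replicate 1, which lay above the other young T libraries for B2m (1369 normalized counts, nearest 1053), H2-K1 (833, nearest 476), H2-D1 (1001, nearest 656), Tapbp (515, nearest 387) and Nlrc5 (21.4, nearest 9.92). In the other transfer group, aged T replicate 4 lay below the rest for H2-D1 (437, nearest 606). In the depletion experiment, CD8a antibody replicate 2 lay above the rest for B2m (1436, nearest 1381), in a group whose SD was 30.9, and IgG2b replicate 4 lay below the rest for H2-Q4 (31.0, nearest 54.4).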

How the results depend on the processing

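In the depletion experiment, the calls of class I genes and of all genes depended on the test. With 1 gene passing among all genes in the main test, 92 passed with DESeq2, 267 with array weights, 3 with a choroid plexus covariate, and 0 without the filter, with a microglia covariate or with a ventral minus dorsal covariate. DESeq2 called 1 class I gene (B2m) and array weights 3 (B2m, H2-D1 and H2-K1), where the main test called 0. Leaving out 1 library at a time gave 0 to 4 class I genes and 0 to 303 genes in all, both highest with DESeq2 without CD8a antibody replicate 5, and 0 to 3 marker lists passing, highest without that same library. The log2 difference of H2-T22 was -0.12 with array weights and -0.20 with an endothelial covariate, and it ran from -0.11 to 0.50 over fits with 1 library left out. Tap1 was at -0.022 with a microglia covariate. The cause was not tested.

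In the transfer experiment, 0 class I genes were called under every alternative run, and leaving out 1 library gave 0 to 4 calls among all genes (4 with DESeq2 without aged T replicate 2). The number of class I genes higher with aged T cells, 3 of 9 in the main test, was 1 with a microglia covariate and 8 with an endothelial covariate. With 1 library left out it was 1 to 8 by limma and, among 10 genes, 1 to 9 by DESeq2. Signs of single genes therefore depended on the setting. With an endothelial covariate the log2 difference was 0.014 for B2m, 0.19 for H2-K1, 0.048 for H2-D1, 0.16 for H2-Q4 and 0.031 for H2-T23. With array weights it was 0.0047 for H2-K1, 0.0032 for H2-Q4 and -0.049 for Tap1, and with a microglia covariate -0.044 for Tap1 and -0.0088 for Tap2. Ranges with 1 library left out pool the limma and DESeq2 fits. They were -0.16 to 0.019 for B2m, -0.17 to 0.16 for H2-K1, -0.19 to 0.040 for H2-D1 and -0.28 to 0.073 for H2-Q4. For H2-T23 the range was -0.23 to 0.021, for Tap1 -0.13 to 0.14 and for Tap2 -0.068 to 0.11. By DESeq2 alone, Nlrc5 ran from -0.45 to 0.36. The median correlation between class I genes within groups was 0.58 when each pair lost the 2 libraries farthest for its first gene. It was 0.60 without young T replicate 1, 0.73 without aged T replicate 4 and 0.49 without both named libraries. The cause was not tested.

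The DESeq2 fits with 1 library left out, and the correlations without named libraries, were chosen after seeing the data. No paired analysis was possible because replicate numbers follow record order and the numbers in the sample titles are not shared between the 2 groups of either experiment. Depth limits Nlrc5 most, with 86 reads in the depletion and 103 in the transfer experiment.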
